A study of Homo sapiens with 9 samples.

Results

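The comparison described here was samuraciclib against vehicle in FaDu cells, a human squamous carcinoma line of the pharynx used as a model of head and neck cancer (HNSCC). It used the 3 libraries labelled as samuraciclib and the 3 labelled as DMSO, 6 of the 9 libraries in the series, and every gene with enough counts to test, which was 16065 of the 58929 genes in the table. The DMSO cultures received the solvent alone and the samuraciclib cultures 250 nM of the compound, and the other 3 libraries came from cultures given 250 nM of a different CDK7 inhibitor, YKL-5-124. The labels gave no genetic change in any group. Treatment lasted 48 h by the treatment protocol and 72 h by the design text, and the labels named no separate batches of libraries. Samples of 1 line at 1 dose and 1 time were measured, with no statement that the cultures were run on separate days, so the p-values below measure the spread between these cultures.

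CDK7 binds cyclin H and MAT1 to form the CDK-activating kinase. That complex phosphorylates the activating loop of the cell cycle kinases CDK1, CDK2, CDK4 and CDK6, and as a part of the general transcription factor TFIIH it phosphorylates the tail of RNA polymerase II while genes are being started. Samuraciclib (CT7001, ICEC0942) is an oral inhibitor that occupies the ATP pocket of CDK7 without a covalent bond, whereas YKL-5-124 binds the kinase covalently.

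Levels are given as CPM, the count of a gene in 1000000 counts of its library after TMM scaling of library size, and always in the order of replicates 1, 2 and 3. Differences are log2 fold changes, samuraciclib over DMSO, with their SE where ± is printed. A gene was called higher or lower where edgeR's quasi-likelihood test gave a Benjamini-Hochberg adjusted p below 0.05 over all genes tested and the log2 fold change had a size above 0.5, and the words rose and fell are kept for called genes. The 6 libraries held 18096180 to 28018126 counts. Of 5 squamous epithelial markers, all were tested, and their summed level was 3110 to 3320 CPM in each of the 6 libraries, most of it KRT5. Of 9 fibroblast, 9 immune and 6 endothelial markers, 1, 1 and 2 had enough counts to test, with LUM, MS4A1, KDR and TEK among those at 0 counts, and the summed level of each whole list stayed between 2.63 and 32.1 CPM. The highest of these was the endothelial cadherin gene CDH5, which stood at 29.6, 29.2 and 31.00 CPM in DMSO and 22.97, 21.7 and 18.7 CPM with samuraciclib (-0.504, a call lost without DMSO 3 (-0.48) and samuraciclib 3 (-0.42)), and its part in other results was not tested. The RNA of RN7SL2 was low in DMSO 3 and samuraciclib 2, with values of 59.3 and 24.9 CPM, while the remaining 4 ranged from 696 to 981 CPM.

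With samuraciclib 1312 genes were called higher and 1535 lower, 8.17% and 9.55% of the genes tested and 17.7% together. Rises made up 46.1% of the calls with TMM scaling and 57.1% with library size alone, so the balance between rises and falls depended on the scale. Without the libraries low in RN7SL2, 1140 genes were higher and 1473 lower. For 52.9% of all genes tested, called or not, the 3 samuraciclib libraries did not overlap the 3 DMSO libraries, and this share is the background for every statement on overlap below. Among called genes, the libraries overlapped for 61 of those called higher and 41 of those called lower.

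The shares of rises and falls differed between classes of genes. Of the 2575 protein-coding genes with the shortest genomic span, 5.86% were called higher and 13.2% lower, and of the 2575 with the longest span 9.28% were called higher and 6.17% lower. The median log2 fold change increased in steps over these 5 classes, from -0.095 in the shortest to 0.07 in the longest. By level, 16.5% of the protein-coding genes of the lowest of 5 classes of DMSO CPM were called higher against 2.17% of the highest class, while 8.43% and 9.01% were called lower. A gene too low in DMSO to pass the filter entered the test only where treated libraries were higher. The classes were also cut on the DMSO level, which the fold change is set against. The excess of rises in the lowest class is therefore partly built in. Among genes averaging 10 CPM or more, 402 were called higher and 831 lower. Antisense genes were called higher in 14.8% and lower in 7.09% of 917 tested. Zinc finger genes with a ZNF symbol on chromosome 19 were called higher in 14.0% of 179, against 4.78% of 209 on other chromosomes.

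**Figure D1:**
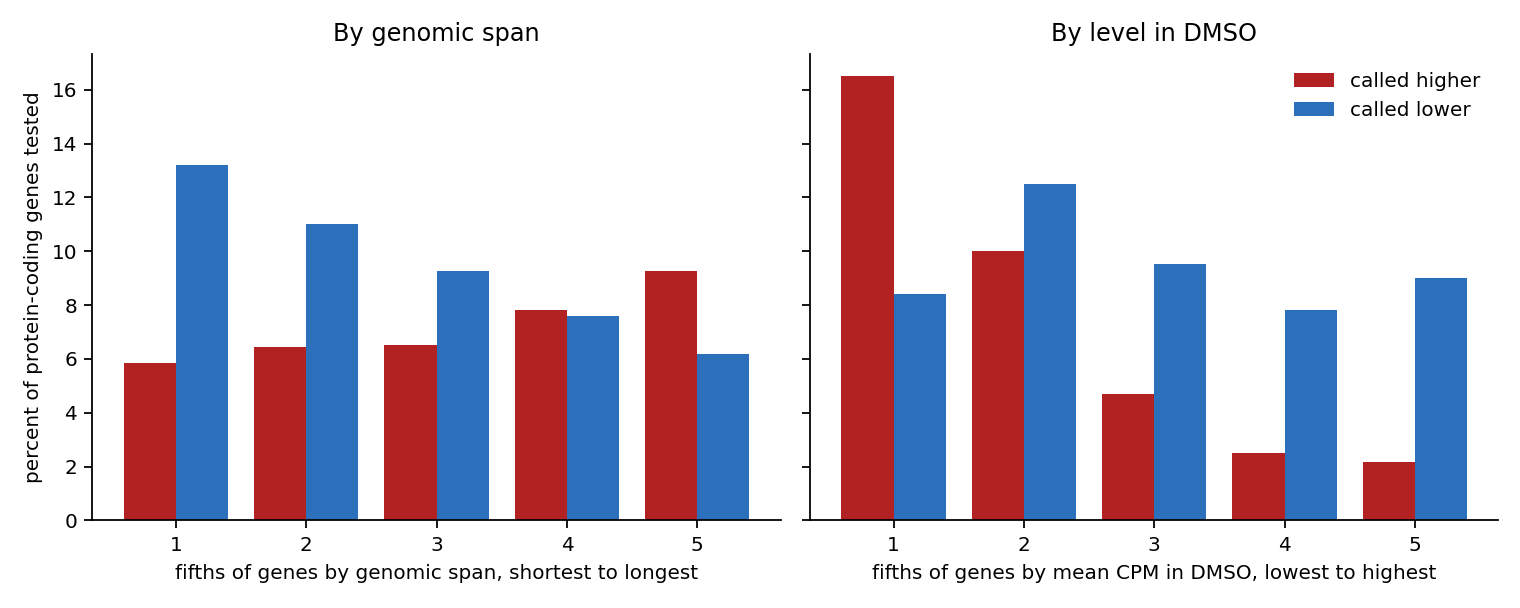
Percent of tested protein-coding genes called higher (red) or lower (blue) with samuraciclib against DMSO, in 5 equal classes of genes by genomic span (left) and by mean CPM in DMSO (right). Falls outnumber rises in the shortest genes, 13.2% to 5.86%, and rises outnumber falls in the genes of lowest level, 16.5% to 8.43%. The latter excess is partly built in by the filter and by the classing on DMSO CPM.

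Of the target complex, only the transcript of a TFIIH subunit passed the test. CDK7 stood at 76.7, 86.3 and 77.2 CPM in DMSO and 75.7, 74.7 and 81.9 CPM with samuraciclib, and these libraries overlapped. Its log2 fold change was -0.05 with a 95% interval of -0.17 to 0.07, and those of its partners were -0.16 for CCNH (cyclin H, interval -0.31 to -0.01) and -0.03 for MNAT1 (MAT1, interval -0.16 to 0.10). Of 9 tested genes of the CDK-activating complex and TFIIH, only GTF2H3, which encodes a core subunit of TFIIH, was called. GTF2H3 (ENSG00000111358, chromosome 12, 123633739 to 123662606) fell from 155, 163 and 162 to 85.7, 77.98 and 78.99 CPM (-0.99 ± 0.056, adjusted p = 2.78e-10), with no overlap. The count of this list was 2 without DMSO 1 and 2 without samuraciclib 3.

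POLR2A, the largest subunit of RNA polymerase II, was at 387, 356 and 417 CPM in DMSO and 456, 477 and 452 CPM with samuraciclib, a log2 fold change of 0.26 ± 0.055 that did not reach the fold threshold. Among 12 polymerase subunits 2 small ones fell, POLR2G (-0.53) and POLR2I (-0.58). Neither call was firm, since POLR2G lost it without samuraciclib 1 (-0.46) and POLR2I without samuraciclib 2 (-0.41). Of 27 transcriptional kinases and elongation factors, 3 rose and 2 fell. The shares called were 18.5% of this list and 16.7% of the polymerase subunits, near the 17.7% of all genes tested. The rises included the super elongation complex scaffold AFF1 (0.60) and the Mediator kinase CDK19 (0.52). MED12 (-0.70 ± 0.080), the activating subunit of the Mediator kinase module, and LARP7 (-0.66 ± 0.095), which holds the 7SK RNA that restrains P-TEFb, fell. CDK19 lost its call without DMSO 1 (0.47), samuraciclib 1 (0.49) and samuraciclib 3 (0.47), and the count of rises in this list was 1 without samuraciclib 3.

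The kinases that CDK7 activates differed among themselves. CDK1, the mitotic kinase, fell from 197, 205 and 205 to 131, 133 and 135 CPM (-0.61 ± 0.049, adjusted p = 1.82e-08). CDK2 (-0.31), CDK4 (-0.15) and CDK6 (-0.27) lay below DMSO by less than the fold threshold. CCND1, the abundant D cyclin of this line, stood at 1439, 1494 and 1534 CPM in DMSO and 1414, 1451 and 1345 CPM with samuraciclib, and the groups overlapped (-0.09). A second D cyclin moved the other way. CCND2 (ENSG00000118971, chromosome 12, 4273772 to 4305350) was at 143, 145 and 155 CPM in DMSO and 255, 272 and 270.3 CPM with samuraciclib, a rise of 0.85 ± 0.046 (adjusted p = 1.94e-10), with no overlap. Another gene model on the same strand covers its whole span. Cyclins E1 and E2 had log2 fold changes of 0.24 and -0.19 and cyclin A2 -0.36, none of them called.

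In the list of G1 kinases, cyclins, RB proteins and E2F factors, 1 of 21 tested members was called higher and 3 lower. Together these calls were a share of the list near the 17.7% called among all genes tested. The activator E2F1 fell from 115, 117 and 108 to 66.8, 64.2 and 66.8 CPM (-0.78 ± 0.049), its relative E2F2 from 23.2, 19.97 and 18.1 to 11.5, 10.8 and 10.9 CPM (-0.87 ± 0.10), and RBL1, which encodes the pocket protein p107, from 59.7, 60.02 and 60.3 to 35.5, 32.7 and 33.5 CPM (-0.82 ± 0.057). RB1 had a log2 fold change of 0.01 with a 95% interval of -0.09 to 0.12, and MYC one of -0.15. Of 8 CDK inhibitor genes, CDKN1A, which encodes p21, rose from 35.7, 37.9 and 39.97 to 53.6, 58.7 and 61.1 CPM (0.61 ± 0.071), and CDKN2B, which encodes p15, rose by 0.74, although an antisense gene covers its whole span. CDKN3, a phosphatase gene of mitotic expression, fell by 0.67 on the log2 scale, and CDKN1B (p27) was at -0.21 and not called.

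Many genes of DNA replication fell, and no tested member of the list was called higher. Of 50 tested genes of origin licensing and the replication fork, 21 were called lower and 0 higher at a median log2 fold change of -0.431, against a median of 0.001 over all genes tested, and with library size alone 13 were called lower. CDC45, part of the replicative helicase, fell from 48.1, 49.96 and 45.4 to 21.2, 22.6 and 18.9 CPM (-1.19 ± 0.073, adjusted p = 7.39e-10). MCM7, a subunit of the same helicase, fell from 511, 513 and 491 to 284, 263 and 281 CPM (-0.87 ± 0.049), and MCM2 from 295, 288 and 272 to 178, 169 and 173 CPM (-0.72 ± 0.046). In all of these the lowest control library lay well above the highest treated one. The fork protection pair TIMELESS (-0.64 ± 0.048) and TIPIN (-1.05 ± 0.083) and the helicase subunit MCM5 (-0.57) also fell. Among 11 genes of deoxynucleotide supply, RRM2 (-1.17), a subunit of ribonucleotide reductase, DTYMK (-0.84), the thymidylate kinase, and TK1 (-0.53), the thymidine kinase, fell. The summed level of the replication list was 5870 to 6022 CPM in the DMSO libraries and 4391 to 4453 CPM with samuraciclib, an exact permutation p of 0.1, which is the smallest that 3 against 3 libraries allow. In a bulk sample, fewer cells in a cycle phase and less RNA of such genes per cell cannot be told apart.

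Promoter letters of 2 of these genes are shown because they carry exact matches to a recognition sequence of E2F factors. The search covered 250 bases before the RefSeq start (GRCh38.p14) on both strands for TTTCCCGC, TTTGGCGC, TTTGCCGC and TTTCGCGC, and 11231 of the 16065 tested genes had a promoter in the table used. The stretches below run 5′ to 3′ on the strand of the gene, chr20:37095998-37096043 on the minus strand for RBL1 and chr2:135876502-135876615 on the minus strand for MCM6, which encodes another helicase subunit. Capitals mark the matches, and in each of the 2 capital runs of MCM6 a match on the gene's strand overlaps a match on the other strand.
RBL1: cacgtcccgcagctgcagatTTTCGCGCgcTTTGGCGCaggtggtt
MCM6: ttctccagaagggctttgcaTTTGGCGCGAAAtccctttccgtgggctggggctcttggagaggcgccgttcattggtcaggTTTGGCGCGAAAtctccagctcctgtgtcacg
At least 1 match was found in 27.9% of 43 promoters of the replication list, against 4.42% of all tested promoters and 2.79% of all 27305 in the table. The share was 5.13% among the 1052 promoters of genes called lower and 3.99% among the 802 called higher. MCM6 stood at 159, 175 and 158 CPM in DMSO and 114, 109 and 117 CPM with samuraciclib (-0.53 ± 0.049, lower), a call that was lost without DMSO 2 (-0.48). It was chosen for its promoter after its values were seen. A match describes letters in a window and is not evidence of binding.

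Some mitotic genes fell as well. Of 60 tested genes of G2 and mitosis, 17 were called lower and 0 higher, at a median of -0.364. CDC20, the activator of the anaphase promoting complex, fell from 419, 419 and 393 to 208, 195 and 213 CPM (-0.997 ± 0.050, adjusted p = 7.65e-11), and CCNB1, the cyclin of CDK1, from 436, 458 and 429.5 to 278, 279 and 291 CPM (-0.64 ± 0.047). The spindle motors KIF20A (-1.01 ± 0.056) and KIF20B (-0.87 ± 0.062), the transcription factor MYBL2 (-0.81 ± 0.048) and the kinetochore gene ZWINT (-0.73 ± 0.045) fell as well. Of 10 genes of condensin and mitotic chromosomes, NCAPG (-0.99), NCAPH (-0.98), TOP2A (-0.87) and SMC4 (-0.71) fell and none rose. For the latter 4 genes no library of either group overlapped the other. CDC20 is shown with 2 CCAAT boxes in capitals, a motif that binds the factor NF-Y and was searched as CCAAT and ATTGG in the same window, chr1:43358861-43358950 on the plus strand.
CDC20: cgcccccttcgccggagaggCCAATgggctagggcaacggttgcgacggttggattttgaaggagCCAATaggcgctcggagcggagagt
This motif was in 72.5% of 51 mitotic promoters and 73.3% of the 15 of them whose gene was called lower, against 34.9% of all tested promoters and 33.0% of the whole table. The E2F letters were in 9.8% of the mitotic promoters and in 0 of those 15.

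DNA repair genes were lower in some branches. Recombination repair, with the Fanconi anemia genes, had 40 tested members, of which 10 fell and 0 rose at a median of -0.271. The excision, mismatch and end-joining branches had 41, of which 7 fell and 0 rose at a median of -0.29. ATM, the kinase that responds to double-strand breaks, was at 113, 102 and 100.2 CPM in DMSO and 51.1, 51.6 and 47.6 CPM with samuraciclib (-1.07 ± 0.064). XRCC3 (-0.98 ± 0.070) and RAD52 (-0.87 ± 0.10), of homologous recombination, BRCA1 (-0.71 ± 0.052) and FANCD2 (-0.65 ± 0.052) fell too. An opposite-strand gene model covers 93.0% of the span of XRCC3 and 41.3% of that of ATM, and the strand setting of the counting is not given in the sources used here, so reads of such neighbours cannot be separated. DDB2, the sensor of ultraviolet damage and a p53 target, fell from 53.3, 56.99 and 54.8 to 24.6, 24.98 and 23.6 CPM (-1.17 ± 0.066). SMUG1 (-0.81), a uracil glycosylase, and PARP2 (-0.61) were also called lower.

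**Figure D2:**
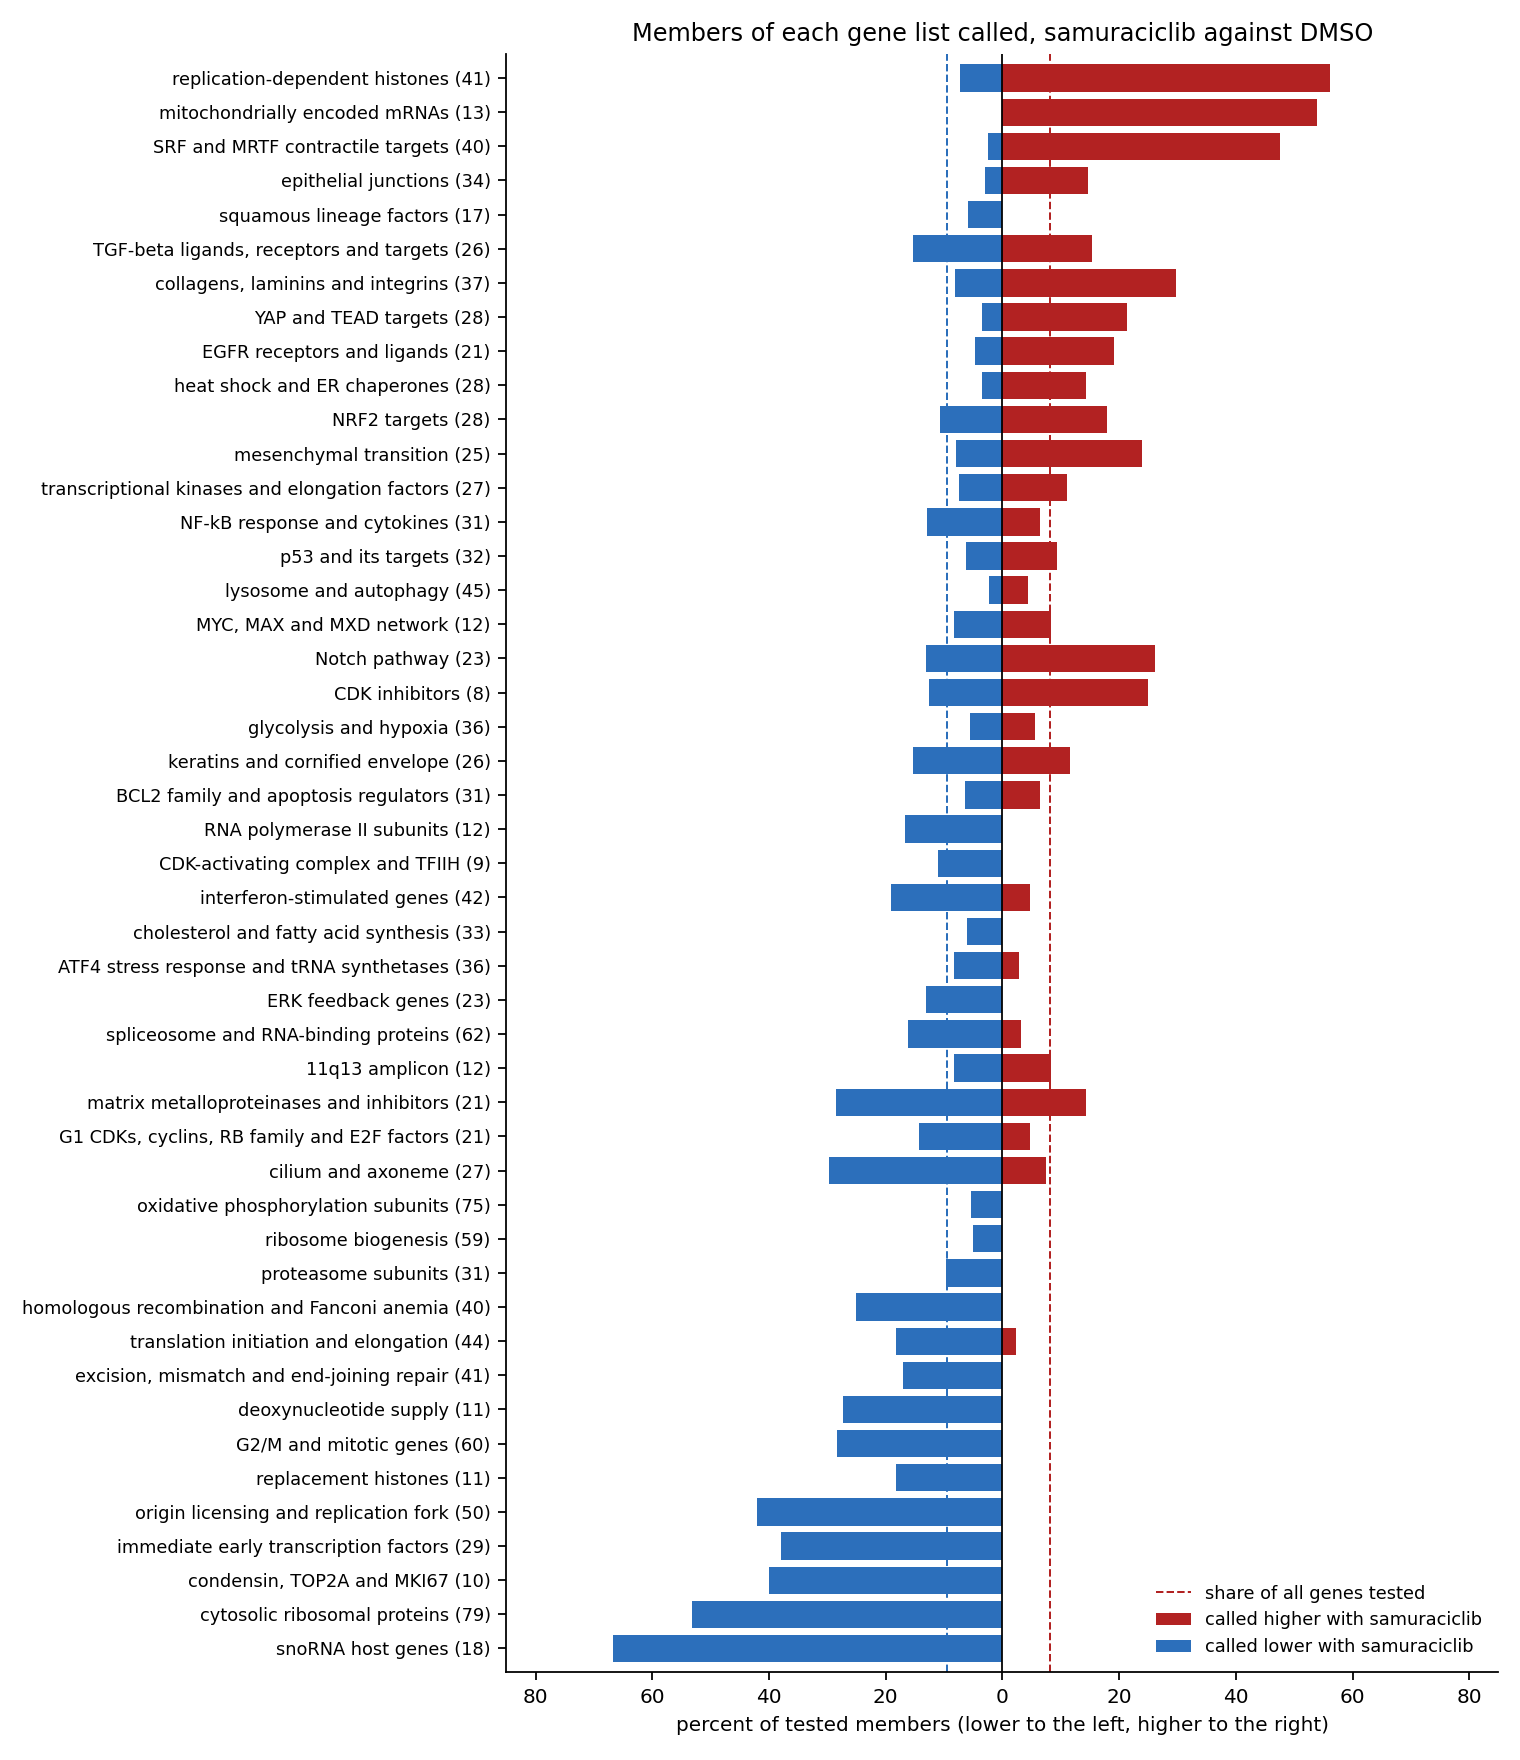
Share of tested members called higher (red, to the right) and lower (blue, to the left) with samuraciclib against DMSO in each gene list with at least 8 tested members, whose number is in brackets, ordered by median log2 fold change. Dashed lines mark the shares over all genes tested, 8.17% and 9.55%; snoRNA host genes lie at the bottom and replication-dependent histones at the top.

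Immediate early transcription factors, which growth signals induce within minutes, fell without exception among the called members. Of 29 tested, 11 were called lower and 0 higher (median -0.456). EGR1 (ENSG00000120738, chromosome 5, 138465490 to 138469315) was at 282, 273 and 373 CPM in DMSO and 76.1, 93.2 and 87.2 CPM with samuraciclib, so that every treated library held less than the lowest control (-1.86 ± 0.13, adjusted p = 2.31e-09). In DMSO the third library was the highest of its group for EGR1, and this was also so for FOS (503, 549.5 and 707 CPM against 163, 177 and 188 CPM, -1.74 ± 0.11) and FOSB (94.4, 94.3 and 139 CPM against 37.2, 55.3 and 52.3 CPM, -1.18 ± 0.14). JUN (-0.94 ± 0.085), the orphan receptor gene NR4A1 (-0.87 ± 0.083) and KLF2 (-1.29 ± 0.16), a factor of low level here, also fell. Of 23 feedback genes of the ERK pathway, DUSP1 (-1.07 ± 0.065), a nuclear phosphatase of MAP kinases, ETV1 (-1.004 ± 0.11) and DUSP6 (-0.501 ± 0.069), the ERK phosphatase, were lower, and DUSP6 lost its call without DMSO 3 (-0.42) and samuraciclib 3 (-0.44). EGFR, the receptor upstream, had a log2 fold change of -0.06 (95% interval -0.17 to 0.04). Of 21 genes of EGFR family receptors, ligands and regulators, the negative regulators LRIG1 (0.66), LRIG3 (0.54), ERRFI1 (0.504) and CBLB (0.55) rose and the ligand gene NRG2 (-0.67) fell. The share called in this list was 23.8%. The call was lost without DMSO 3 (0.48) for LRIG3, without DMSO 1 (0.46) and DMSO 2 (0.49) for ERRFI1 and without DMSO 3 (0.47) and samuraciclib 3 (0.46) for CBLB.

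Genes of contraction and the actin cytoskeleton moved the opposite way. Many of them are targets of serum response factor (SRF) with its cofactors of the MRTF family, and of 40 tested 19 were called higher and 1 lower (median 0.452). MYL9 (ENSG00000101335, chromosome 20, 36541484 to 36551447), the regulatory light chain of smooth muscle myosin, rose from 20.3, 21.9 and 22.8 to 80.5, 84.4 and 94.7 CPM (1.99 ± 0.076, adjusted p = 2.8e-12), although an antisense gene model covers its whole span. TAGLN, the actin-binding protein transgelin, rose from 14.99, 15.1 and 17.7 to 50.5, 55.9 and 63.3 CPM (1.82 ± 0.093), and JPH2, a junctophilin of muscle membranes, from 17.3, 20.8 and 18.8 to 68.9, 61.6 and 75.4 CPM (1.85 ± 0.084). PALLD, a scaffold of stress fibres, stood at 47.96, 49.6 and 53.1 CPM in DMSO and 138, 137 and 141 CPM with samuraciclib (1.46 ± 0.051). These 4 genes had no overlap between groups, which was a condition for naming genes by the size of their change. Of the other members, PDLIM5 (1.04 ± 0.065), MYL12A (0.74 ± 0.050), ACTN1 (0.65), VCL (0.62) and TPM1 (0.78) rose, while the nonmuscle myosin gene MYH10 (-0.55 ± 0.050) fell. SRF itself rose from 125, 133 and 131 to 194, 176 and 206 CPM (0.56 ± 0.057). Outside this list, the actin bundling gene LCP1 (L-plastin) rose from 75.5, 83.5 and 83.4 to 201, 197 and 191 CPM (1.28 ± 0.053). The summed level of the list was 23840 to 25270 CPM in DMSO and 25560 to 26300 CPM with samuraciclib.

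EGR1 fell and SRF and CNN2 rose, and all 3 hold the SRF recognition sequence, the CArG box, in their promoter window. CNN2 (calponin 2) stood at 313, 315 and 361 CPM in DMSO and 504, 516 and 526 CPM with samuraciclib (0.64 ± 0.058). The windows are chr5:138465354-138465425 for EGR1, chr6:43171219-43171268 for SRF and chr19:1026499-1026548 for CNN2, all on the plus strand, with the boxes in capitals.
EGR1: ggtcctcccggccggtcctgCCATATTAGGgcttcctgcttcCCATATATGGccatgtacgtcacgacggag
SRF: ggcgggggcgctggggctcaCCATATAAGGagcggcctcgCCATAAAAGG
CNN2: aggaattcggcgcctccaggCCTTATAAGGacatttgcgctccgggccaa
The box was present in 22.2% of the 36 contractile promoters with a sequence, against 1.02% of all tested promoters and 1.14% of the whole table. That list was drawn up as targets of SRF and MRTF, so this excess does not bear on the response to samuraciclib. Within the list, the share was 23.5% of the 17 promoters whose gene was called higher. Among genes called higher 2.49% had it, 20 of 802, and among genes called lower 0.76%, 8 of 1052.

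**Figure D3:**
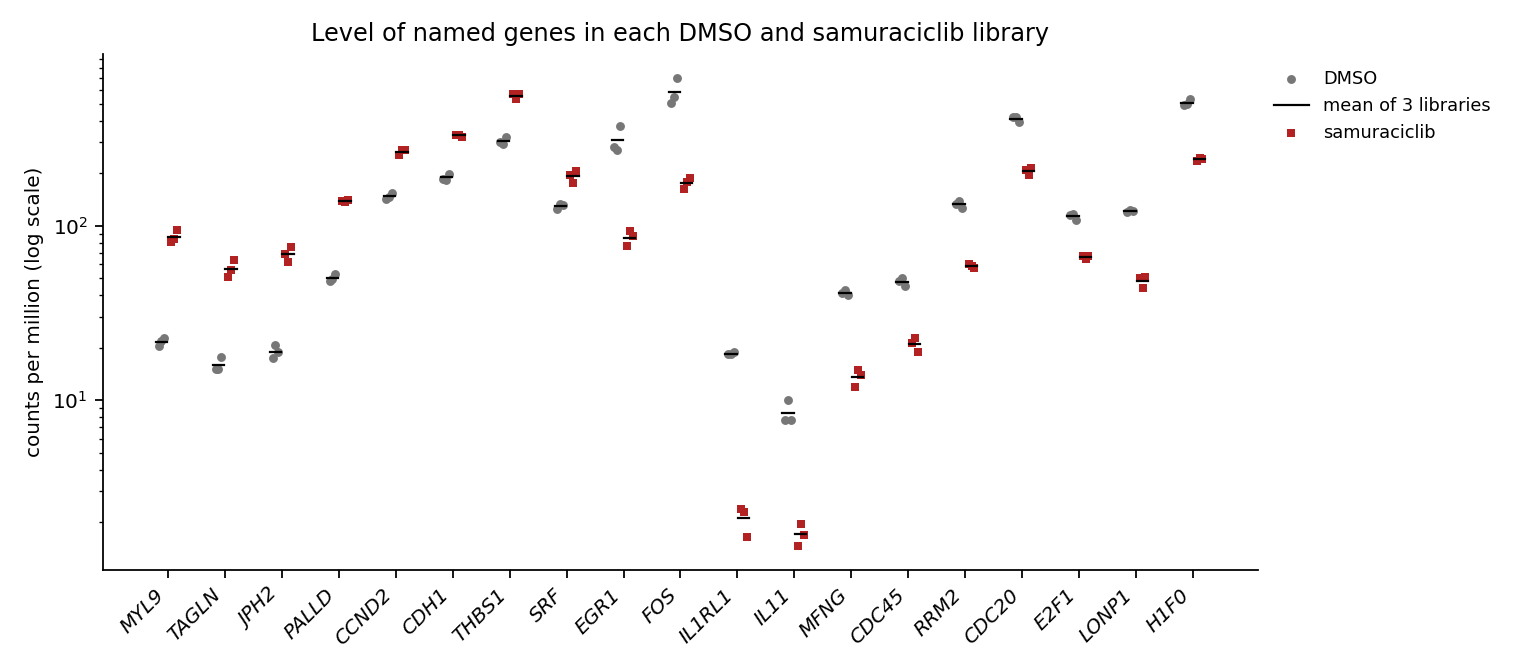
CPM on a log axis for 19 genes in the 3 DMSO libraries (grey circles) and the 3 samuraciclib libraries (red squares), with a black line at each mean. The groups do not overlap for any gene plotted, which was a condition for naming some of them and held for 52.9% of all genes tested. MYL9 to SRF lie higher with samuraciclib, EGR1 to H1F0 lie lower.

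Some secreted proteases of the extracellular matrix fell, and so did some cytokine genes. Of 21 tested metalloproteinase and inhibitor genes, 6 fell and 3 rose (median -0.129). The collagenase genes MMP1 (74.9, 73.2 and 66.9 CPM in DMSO, 17.4, 17.3 and 16.4 CPM with samuraciclib, -2.07 ± 0.069) and MMP13 (-1.71 ± 0.12) and the stromelysin genes MMP3 (-1.63 ± 0.12) and MMP10 (-1.57 ± 0.16), neighbours on chromosome 11, fell, as did MMP12 (-1.04 ± 0.17) of the same cluster. WTAPP1 on the opposite strand covers the whole of MMP1 and MMP10. The membrane-bound proteases MMP15 (0.69 ± 0.078) and MMP17 (0.72 ± 0.088) and the inhibitor TIMP3 (0.95 ± 0.20) rose, and the count of rises was 5 without DMSO 3.

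Of 31 genes of the NF-kB response and cytokines, 4 fell and 2 rose (median 0.067), a share of 19.4% called against 17.7% of all genes tested. The summed level of this list was 1880 to 1930 CPM in DMSO and 1973 to 2040 CPM with samuraciclib. IL11 (ENSG00000095752, chromosome 19, 55364389 to 55370463), a cytokine of the IL6 family, was at 7.67, 9.96 and 7.68 CPM in DMSO and 1.45, 1.96 and 1.70 CPM with samuraciclib (-2.30 ± 0.17, adjusted p = 8.43e-09), and IL6 itself at 4.92, 6.28 and 6.52 and 1.68, 2.05 and 1.39 CPM (-1.79 ± 0.22). IL24 (-1.25) fell, and CXCL8, the neutrophil chemokine, went from 104, 105 and 110.4 to 60.8, 60.6 and 50.3 CPM (-0.89 ± 0.069). The macrophage growth factor gene CSF1 (0.51 ± 0.11) and TRAF1 (0.83 ± 0.21) rose, the former losing its call without DMSO 1 (0.43), DMSO 3 (0.48), samuraciclib 1 (0.48) and samuraciclib 3 (0.47). The AP-1 factors FOS and JUN bind TGACTCA and TGAGTCA, and the windows of IL11 (chr19:55370533-55370579, minus strand) and CXCL8 (chr4:73740412-73740458, plus strand) each hold 1 such site, in capitals.
IL11: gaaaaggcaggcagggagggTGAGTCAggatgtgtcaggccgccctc
CXCL8: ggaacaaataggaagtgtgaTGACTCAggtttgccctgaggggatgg
These letters were in 3.9% of the promoters of genes called lower, 2.37% of those called higher, 2.71% of all tested and 4.16% of the whole table.

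Among protein-coding genes that averaged 10 CPM or more over the 6 libraries, the largest fall that no 1 library decided was that of IL1RL1, the receptor of the cytokine IL33. IL1RL1 (ENSG00000115602, chromosome 2, 102311502 to 102352037) was at 18.3, 18.3 and 18.8 CPM in DMSO and 2.39, 2.28 and 1.64 CPM with samuraciclib, 8.72-fold lower (-3.12 ± 0.13, adjusted p = 7.07e-12). The 3 controls lay close together and far above every treated library. The gene model of its neighbour IL18R1 covers 99.9% of its span on the same strand. BOLA2B had a larger fitted fall (-3.97), but its CPM was 2.40, 67.7 and 2.41 in DMSO and 1.08, 1.82 and 1.64 with samuraciclib, so DMSO 2 alone made the difference, and without it the log2 fold change was -0.67 and not called. BOLA2B has a near-identical copy, which makes its counts uncertain.

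Of 42 tested interferon-stimulated genes, 8 fell and 2 rose (median -0.062), a share of 23.8% called against 17.7% of all genes tested. IFI44 (-1.19 ± 0.067), OASL (-1.13 ± 0.092), IFIT3 (-0.96 ± 0.072) and the helicase gene DDX60 (-0.86 ± 0.086) fell, while TRIM22 (0.82 ± 0.13) and IRF9 (0.74 ± 0.21) rose, the latter with overlap between groups. LIPA on the opposite strand covers the whole of IFIT3.

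Growth factors and matrix proteins were among the rises. TGFB2, a TGF-beta ligand, went from 10.4, 9.59 and 12.6 to 24.6, 23.7 and 28.5 CPM (1.22 ± 0.11), PDGFB, a ligand of the platelet-derived growth factor receptors, from 45.2, 47.03 and 50.2 to 125, 117 and 121 CPM (1.35 ± 0.062), and the receptor gene TGFBR2 rose by 0.61. In the TGF-beta list 4 of 26 tested genes rose and 4 fell. Those that fell included the BMP-responsive ID1 (-0.71 ± 0.059) and ID3 (-0.64), and LTBP2 (-0.65), with the call of ID3 lost without samuraciclib 3 (-0.46). The other rises were those of THBS1, named below, and BAMBI (0.66), a decoy receptor. Of 37 collagen, laminin and integrin genes, 11 rose and 3 fell (median 0.165). TNC (tenascin C) rose from 7.73, 8.47 and 6.52 to 20.2, 19.6 and 16.8 CPM (1.33 ± 0.11), COL4A1, of basement membrane collagen, from 42.8, 42.6 and 43.7 to 95.5, 94.4 and 87.7 CPM (1.10 ± 0.057), and THBS1, thrombospondin 1, from 304, 295 and 321 to 567, 534 and 570.0 CPM (0.86 ± 0.050). Fibronectin (FN1, 0.82) and the integrin chains ITGAV (0.87), ITGB8 (0.66), ITGA5 (0.63) and ITGB6 (0.55) rose, and ITGB6 lost its call without DMSO 1 (0.49). COL27A1 (-1.29 ± 0.067), a fibrillar collagen gene, and COL17A1 (-0.67 ± 0.046), of the hemidesmosome, fell. Of 28 YAP and TEAD targets 6 rose, among them IGFBP3 (0.97), and AXL (-0.64), a receptor tyrosine kinase, fell.

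In the Notch pathway 6 of 23 tested genes rose and 3 fell, and the falls included glycosyltransferases that modify the receptor. MFNG (ENSG00000100060, chromosome 22, 37469063 to 37486401), manic fringe, was at 41.1, 42.7 and 40.00 CPM in DMSO and 11.9, 14.8 and 13.9 CPM with samuraciclib (-1.60 ± 0.088, adjusted p = 2.32e-10), and its relative LFNG (-0.62) fell. HES1, a target of the pathway, fell from 124, 120.2 and 127 to 69.8, 68.9 and 73.5 CPM (-0.81 ± 0.052), while the ligand gene JAG1 rose from 32.9, 37.4 and 38.1 to 59.2, 58.1 and 60.3 CPM (0.71 ± 0.060). The other 5 rises were of genes at a low level, DLL3 (1.53 ± 0.43), DLL4 (0.91 ± 0.29), HES2 (1.04 ± 0.35), HEY1 (0.71 ± 0.27) and HES6 (0.76 ± 0.20), and for HES6 the groups overlapped. The call was lost without DMSO 1 (0.74) and DMSO 2 (0.78) for DLL4, without DMSO 1 (0.78) and samuraciclib 1 (1.03) for HES2 and without DMSO 1 (0.79), DMSO 2 (0.77), DMSO 3 (0.56), samuraciclib 1 (0.69) and samuraciclib 2 (0.60) for HEY1, and the count of rises was 3 without DMSO 1.

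Many mRNAs of the translation machinery fell. Of 79 tested genes of cytosolic ribosomal proteins 42 fell and 0 rose, at a median of -0.508. RPS14 was at 595, 666 and 548 CPM in DMSO and 289, 321 and 324 CPM with samuraciclib (-0.95 ± 0.065), RPLP0 at 3741, 3648 and 3419 and 2186, 2124 and 2202 CPM (-0.73 ± 0.047), and RPL7A at 1944, 2005 and 1958 and 1156, 1176 and 1167 CPM (-0.76 ± 0.044). Together these genes held 60960 to 64690 CPM in DMSO and 41980 to 44750 CPM with samuraciclib, again an exact permutation p of 0.1. Of 18 host genes of small nucleolar RNAs, 12 fell and 0 rose (median -0.765), the largest share of any list. SNHG7 fell from 176, 171 and 168 to 62.2, 58.1 and 60.9 CPM (-1.51 ± 0.057), LRRC75A-AS1 from 276, 283 and 311 to 90.9, 105 and 103 CPM (-1.54 ± 0.067), and GAS5 from 150.0, 140.4 and 137 to 85.3, 89.7 and 82.9 CPM (-0.73 ± 0.050). Many of these hosts and the ribosomal protein genes share a class of transcription start, the 5′ terminal oligopyrimidine motif. Other models cover 93.1% of the span of LRRC75A-AS1 on the opposite strand.

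Of 44 translation factors 8 fell and 1 rose (median -0.28), and with library size alone 5 were called lower. EEF1A1, the elongation factor, stood at 9829, 10614 and 11155 CPM in DMSO and 5797, 6553 and 6017 CPM with samuraciclib (-0.78 ± 0.061), and the poly(A)-binding gene PABPC4 (-0.75 ± 0.048) and EIF2B2 (-0.98 ± 0.049), of the exchange factor eIF2B, fell too. EIF4A1 rose by 0.52, with a readthrough model over 98.1% of its span, and lost its call without DMSO 2 (0.46) and samuraciclib 2 (0.38). Of 59 genes of ribosome biogenesis only GNL3 (-0.71), RRP8 (-0.58) and NPM1 (-0.52) were called, all lower, at a median of -0.173, and the count was 6 without DMSO 1 and 5 without samuraciclib 2. NPM1 lost its call without DMSO 2 (-0.49) and samuraciclib 3 (-0.48).

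Of 62 genes of the spliceosome and RNA-binding proteins 10 fell and 2 rose, a share of 19.4% called against 17.7% of all genes tested. EWSR1 and TAF15, of the FET family of RNA-binding proteins, went from 523, 539 and 542 to 230.2, 259 and 225 CPM (-1.17 ± 0.054) and from 257, 285 and 305 to 118, 133 and 111 CPM (-1.22 ± 0.072). HNRNPA1 (-0.95 ± 0.052), HNRNPDL (-0.90 ± 0.053), the U1 subunit gene SNRPA (-0.92) and DDX39A (-0.89 ± 0.049), of mRNA export, also fell. SNRPA1, a subunit of the U2 particle, rose from 218, 226 and 216 to 441, 454 and 464 CPM (1.04 ± 0.046), and PRPF3 (0.53), of U4/U6, rose but lost its call without samuraciclib 2 (0.49).

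Many replication-dependent histone genes were called higher. Libraries were made from poly(A)-selected RNA, and the main transcripts of replication-dependent histone genes lack a poly(A) tail. Their counts need not follow the level of those main transcripts, and how much tail-less RNA was carried over was not tested. Of 41 tested replication-dependent genes 23 were called higher and 3 lower, at a median of 0.814, while the genes of DNA replication fell. HIST1H2BK rose from 17.9, 17.04 and 17.1 to 46.7, 49.99 and 47.2 CPM (1.47 ± 0.061), HIST1H2AC from 36.1, 37.2 and 33.8 to 78.6, 74.1 and 78.8 CPM (1.11 ± 0.055), and HIST1H2BJ from 5.32, 5.86 and 4.52 to 16.05, 14.2 and 17.2 CPM (1.61 ± 0.12). The members called lower were HIST2H2AC (4.52, 3.94 and 2.52 CPM in DMSO, 1.03, 1.32 and 2.00 CPM with samuraciclib), HIST1H2BH (-0.63 ± 0.091) and HIST1H2AJ (-0.98 ± 0.32), and HIST1H2AJ lost its call without DMSO 1 (-0.81) and samuraciclib 2 (-0.85). Histone genes are near-identical to one another in places, so the split of reads between members is uncertain. The summed level of the list was 192.1 to 217.9 CPM in DMSO and 345.9 to 372.6 CPM with samuraciclib. HIST1H2BK is shown with 6 CCAAT or ATTGG letters in capitals, chr6:27146913-27147089 on the minus strand.
HIST1H2BK: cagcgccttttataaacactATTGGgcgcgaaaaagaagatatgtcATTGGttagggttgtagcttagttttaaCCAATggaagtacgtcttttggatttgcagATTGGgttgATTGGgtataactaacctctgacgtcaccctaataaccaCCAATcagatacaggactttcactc
This motif stood in 84.2% of 38 histone promoters and 81.8% of the 22 whose gene was called higher.

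Replacement histones, which are made outside S phase from polyadenylated transcripts, did not rise. Of 11 tested 0 were called higher and 2 lower (median -0.388), a share of 18.2% called, near the 17.7% of all genes tested. The count of falls was 1 without DMSO 1, without DMSO 2 and without samuraciclib 2. H1F0 (ENSG00000189060, chromosome 22, 37805093 to 37807436), the linker histone H1.0 of resting and differentiated cells, was at 489.6, 502 and 534 CPM in DMSO and 235, 245 and 241 CPM with samuraciclib, 2.11-fold lower (-1.08 ± 0.053, adjusted p = 6.33e-11). H1FX, the linker histone H1X, was at 104, 102 and 89.3 and 75.7, 55.5 and 74.3 CPM (-0.52 ± 0.11), and its call was lost without DMSO 1 (-0.48), DMSO 2 (-0.498) and samuraciclib 2 (-0.39).

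Squamous lineage factors held few calls, 5.88% of those tested against 17.7% of all genes tested. The share called was 17.6% of junction genes, 26.9% of keratin and cornified envelope genes and 32.0% of mesenchymal transition genes. TP63, the squamous lineage factor, had a log2 fold change of 0.28, and among 17 squamous factors only SOX9 was called (lower, -0.54), a call lost without DMSO 3 (-0.45). In the same list 1 without DMSO 1, 2 without DMSO 3, 1 without samuraciclib 1, 1 without samuraciclib 2 and 1 without samuraciclib 3 were called higher, against 0 with all libraries. Of 34 junction genes 5 rose, the cadherins CDH1 (185, 183 and 199 CPM in DMSO, 333, 333 and 324 CPM with samuraciclib, 0.80 ± 0.047) and CDH3 (0.62) and the desmosomal genes DSC2 (0.75), PKP1 (0.69) and PKP2 (0.53). PKP3 (-0.52) fell and lost its call without DMSO 1 (-0.49) and samuraciclib 2 (-0.48). Of 26 keratin and cornified envelope genes 3 rose and 4 fell, with KRT17 at 1744, 1786 and 1804 CPM in DMSO and 2639.7, 2639.6 and 2793 CPM with samuraciclib (0.60 ± 0.045) and KRT15, of basal cells, at 82.98, 87.1 and 89.1 and 45.4, 52.00 and 47.7 CPM (-0.84 ± 0.064). The kallikreins KLK10 (-1.19) and KLK5 (-0.65) and the calcium-binding gene S100A2 (-0.55) fell, and KRT16 (0.86) rose. KRT13 (0.53) was called higher with overlap between groups, and its call was lost without DMSO 1 (0.503), DMSO 2 (0.38), samuraciclib 1 (0.43) and samuraciclib 2 (0.52). In a list of 25 genes of mesenchymal transition 6 rose and 2 fell, the rises being the matrix genes and PDGFB named above, and ZEB1, a repressor of CDH1, was lower at 1.49, 0.852 and 0.979 CPM in DMSO and 0.842, 0.365 and 0.257 CPM with samuraciclib (-1.14 ± 0.40), a call lost without DMSO 1 (-0.90), samuraciclib 2 (-0.96) and samuraciclib 3 (-0.85).

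Of 32 p53 targets 3 rose, CDKN1A, ZMAT3 (0.74 ± 0.090) and TP53INP1 (1.11 ± 0.33), and 2 fell, DDB2 and PMAIP1 (-0.64 ± 0.078), which encodes the BH3-only protein NOXA. TP53INP1 lost its call without DMSO 3 (0.86), and the count of rises was 5 without samuraciclib 1. Among 31 genes of the BCL2 family and apoptosis, BCL2 itself rose from 4.35, 5.01 and 4.37 to 9.17, 7.70 and 8.99 CPM (0.92 ± 0.13), BCL2L2 fell (-0.66 ± 0.051), and MCL1, at -0.44, did not reach the fold threshold. DIABLO rose by 0.53 and lost its call without DMSO 2 (0.47) and samuraciclib 2 (0.47). The shares called were 15.6% of the p53 targets and 12.9% of the apoptosis list, against 17.7% of all genes tested.

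Among 36 genes of the ATF4 stress response DDIT4 (-0.75), PPP1R15A (-0.71) and DDIT3 (-0.73), which encodes CHOP, fell, and SLC7A11 (0.65), the cystine transporter, rose. The count of rises was 3 without DMSO 3. Of 28 NRF2 targets 5 rose, with GCLC (0.64 ± 0.044), of glutathione synthesis, TXNRD1 (0.60 ± 0.048), thioredoxin reductase, UGDH (0.66) and the transporter ABCC3 (0.89) beside SLC7A11. Those that fell were the transporters ABCC1 (-0.70) and ABCC2 (-0.84) and PIR (-0.58). Among 28 chaperone genes the cochaperone gene BAG3 (0.74 ± 0.056), HSPA1A (0.92 ± 0.095), HSPA1B (0.53) and the low HSPB8 (1.29) rose and the mitochondrial chaperonin HSPD1 (-0.51) fell. The call was lost without DMSO 1 (0.47) and samuraciclib 3 (0.46) for HSPA1B, without DMSO 2 (1.19), DMSO 3 (1.35) and samuraciclib 3 (0.96) for HSPB8 and without samuraciclib 3 (-0.500) for HSPD1. HSPA1A and HSPA1B are near-identical copies whose reads may be divided either way, and the count of rises was 2 without samuraciclib 3. The shares called were 11.1% of the ATF4 list, 28.6% of the NRF2 targets and 17.9% of the chaperones, against 17.7% of all genes tested.

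Metabolic lists held few calls, against 17.7% of all genes tested. The shares were 6.06% for cholesterol and fatty acid synthesis, 11.1% for glycolysis and hypoxia and 5.33% for nuclear oxidative phosphorylation genes. They were 9.68% for the proteasome and 6.67% for lysosome and autophagy genes. Of 33 genes of cholesterol and fatty acid synthesis INSIG1 (-0.63) and LSS (-0.51) fell, LSS losing its call without DMSO 1 (-0.498) and samuraciclib 1 (-0.47). Of 36 genes of glycolysis and hypoxia EGLN3 (1.199) and P4HA2 (1.06) rose while STC1 (-1.31) and ENO2 (-0.76) fell. Of 75 nuclear genes of oxidative phosphorylation 4 fell, ATP5MC1 (-0.56), NDUFA5 (-0.56), NDUFA6 (-0.66) and NDUFV2 (-0.67), and 0 rose (median -0.171), and NDUFV2 lost its call without DMSO 1 (-0.53), samuraciclib 1 (-0.57) and samuraciclib 3 (-0.63). Of 31 proteasome genes PSMC5 (-0.75), PSMD7 (-0.59) and PSMC6 (-0.59) fell. In mitochondria, LONP1 (ENSG00000196365, chromosome 19, 5691834 to 5720572), the protease that degrades damaged matrix proteins, was at 119, 123 and 121 CPM in DMSO and 50.1, 43.9 and 50.8 CPM with samuraciclib (-1.33 ± 0.060, adjusted p = 2.25e-11). Of 45 lysosome and autophagy genes SGSH (0.58) and GABARAPL1 (0.52) rose and 1 fell, with GABARAPL1 losing its call without DMSO 1 (0.47). Outside the metabolic lists, 8 of 27 genes of cilia fell and 2 rose, a share of 37.0% called. With a mean of at least 50 counts required, 3 were called lower and 1 higher. The axonemal dynein gene DNAH2 (-1.78) and CFAP44 (-1.32) were among the falls, and TEKT3 (2.24) and CFAP45 were the rises. CFAP45 was at 3.43, 3.67 and 3.84 CPM in DMSO and 14.6, 13.99 and 12.9 CPM with samuraciclib (1.91 ± 0.11). In the amplified segment 11q13 of this line, which holds CCND1, 1 of 12 tested genes rose and 1 fell, a share of 16.7% called. ANO1, a chloride channel gene, fell from 95.6, 103 and 95.1 to 60.3, 57.3 and 52.9 CPM (-0.78 ± 0.059) and FGF4 rose (0.60).

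The mRNAs encoded in mitochondrial DNA did not give a stable result. Of 13 tested 7 were called higher and 0 lower (median 0.522), but the 2 groups overlapped. MT-CYB was at 1242, 1174 and 1662 CPM in DMSO and 2199, 2684 and 1475 CPM with samuraciclib (0.64 ± 0.16, a call lost without samuraciclib 2 (0.43)), so that samuraciclib 1 and 2 lay above all controls and samuraciclib 3 below DMSO 3. The same order held for the summed level, 26830, 24070 and 33920 CPM in DMSO and 42450, 49670 and 27430 CPM with samuraciclib (exact permutation p = 0.2, smallest possible 0.1). The number called higher was 4 without DMSO 1, 1 without DMSO 2, 11 without DMSO 3, 4 without samuraciclib 1, 0 without samuraciclib 2 and 13 without samuraciclib 3, and 1 with DESeq2.

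**Figure D4:**
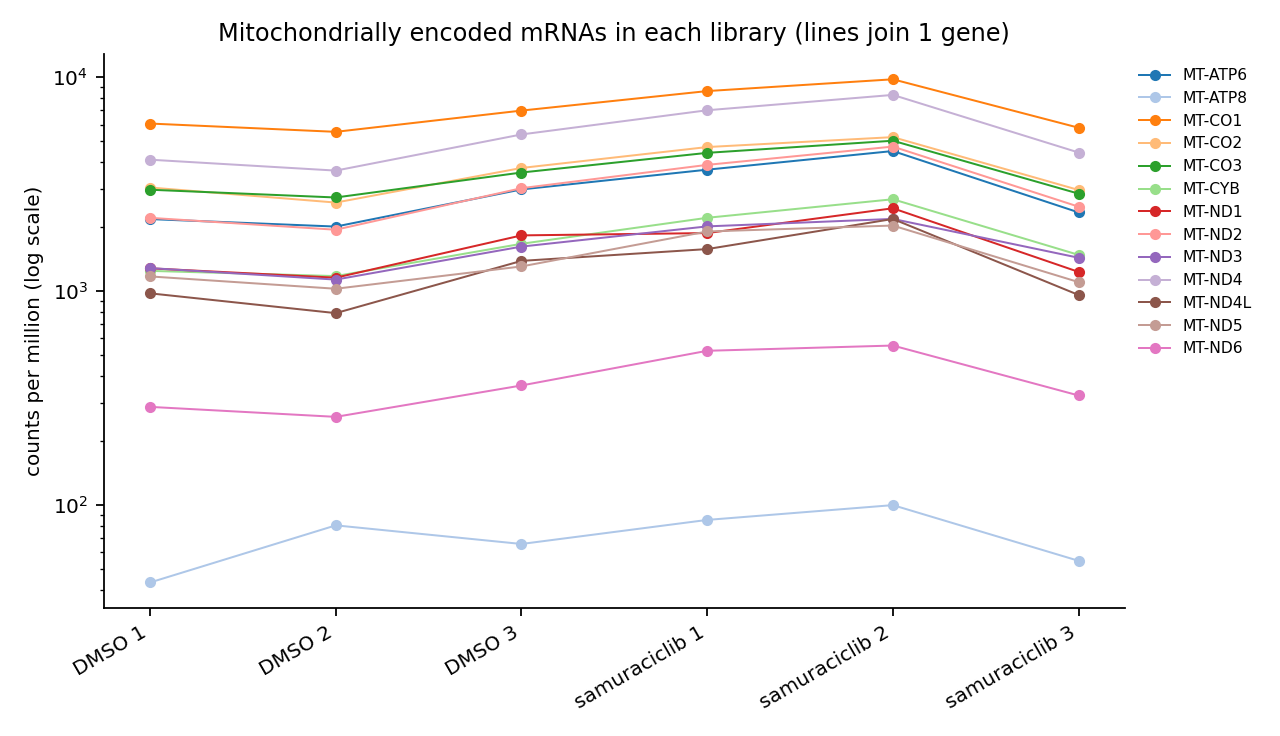
CPM on a log axis for the 13 mitochondrially encoded mRNAs in each of the 6 libraries, with lines joining the values of 1 gene. Samuraciclib 1 and 2 lie above the DMSO libraries and samuraciclib 3 lies among them, for a summed level of 27430 CPM against 24070 to 33920 CPM in DMSO.

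Other large changes of protein-coding genes had no shared list. Rises included TUFT1 (22.1, 22.8 and 21.2 CPM in DMSO, 61.7, 61.7 and 61.1 CPM with samuraciclib, 1.48 ± 0.063), CCDC92 (1.37 ± 0.10) and SH3RF2 (1.22 ± 0.13). Falls included the ubiquitin ligase gene LRSAM1 (31.9, 32.9 and 31.2 CPM in DMSO, 10.2, 10.6 and 10.6 CPM with samuraciclib, -1.61 ± 0.081), the phospholipase gene PLA2G6 (-1.54 ± 0.11), the acyltransferase gene ZDHHC11 (-1.42 ± 0.14), the deadenylase subunit gene PAN2 (-1.35 ± 0.11) and ZNF114 (-1.30 ± 0.078). Among genes that do not encode proteins and reached 2 CPM, the largest rises were those of AL353625.1 (2.69), IKBKGP1 (2.57), AF127577.4 (1.84), AC012615.6 (1.83) and TONSL-AS1 (1.83). IKBKGP1, a pseudogene copy of IKBKG, was at 1.36, 2.37 and 10.3 CPM in the treated libraries, with samuraciclib 3 far above the others, and without that library its log2 fold change was 1.28. The genes TONSL-AS1 and AC012615.6 lie wholly under genes of the opposite strand. The largest falls with a name were PRKXP1 (-1.90), ZSCAN12P1 (-1.86), LINC01963 (-1.83) and LINC00958 (-1.80).

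Samuraciclib was also set against YKL-5-124 at the same dose and time, which asks where the inhibitors differ in this line. Directly compared, 395 genes were higher with samuraciclib and 717 lower, 2.46% and 4.46% of the genes tested, and rises made up 35.5% of these calls and 20.5% with library size alone. Of these genes, 240 were called with samuraciclib alone when each inhibitor was set against DMSO, 451 with YKL-5-124 alone, 168 with both and 253 with neither. Each of those comparisons used the same 3 DMSO libraries, so their values are given side by side and only the direct difference was tested.

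Several falls were deeper with samuraciclib. IL1RL1 was at 5.20, 5.13 and 5.01 CPM with YKL-5-124, above the samuraciclib libraries and below the controls (difference -1.27, adjusted p = 7.56e-06). MFNG was at 26.4, 21.9 and 23.98 CPM with YKL-5-124 (difference -0.83) and LONP1 at 87.6, 79.8 and 89.2 CPM (difference -0.82), also between the other groups. H1F0 was at 403, 447 and 399.9 CPM with YKL-5-124, closer to DMSO than to samuraciclib, and its difference was -0.79 (adjusted p = 2.11e-08). ZDHHC11 (14.4, 12.1 and 13.6 CPM with YKL-5-124, difference -1.16) and DDX60 (19.6, 19.2 and 19.9 CPM, difference -0.83) were not called with YKL-5-124 against DMSO. The metalloproteinase genes MMP12 (-0.92) and MMP10 (-0.71) were lower with samuraciclib than with YKL-5-124 as well.

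Other genes were higher with samuraciclib than with YKL-5-124. CCND2 (180.2, 184 and 185 CPM with YKL-5-124, difference 0.54), BCL2 (4.94, 5.56 and 4.18 CPM, difference 0.81), ITGA5 (37.3, 35.1 and 39.02 CPM, difference 0.55) and ITGB8 (0.65) rose with samuraciclib and with YKL-5-124 stood closer to DMSO. MYL9, called higher with each inhibitor, was higher with samuraciclib (0.57). Of the ribosomal protein genes, 42 were called lower with samuraciclib and 75 with YKL-5-124, each against DMSO, and in the direct comparison 39 of 79 were called higher than with YKL-5-124 and 0 lower. RPLP0 was at 1332, 1387 and 1447 CPM with YKL-5-124 (difference 0.64) and RPS4X at 617, 669.5 and 572 CPM in DMSO, 397, 384 and 407 with samuraciclib and 205, 208 and 208 with YKL-5-124 (difference 0.94). RPL27A (0.98) and RPL13 (0.90) differed alike. EIF4A2, a helicase of translation initiation, was at 325, 349 and 327 CPM with samuraciclib, 327, 347 and 338 CPM in DMSO and 174, 184 and 178 CPM with YKL-5-124 (difference 0.90). The 95% interval of its change with samuraciclib was -0.11 to 0.08. SHISAL1 (1.37), the potassium channel gene KCNQ5 (0.96), SAMD4A (0.91) and KIAA1549 (0.86) also had large positive differences. SAMD4A and KIAA1549 rose with samuraciclib (0.56 and 0.74), SAMD4A losing that call without DMSO 1 (0.47), while SHISAL1 and KCNQ5 were called lower with YKL-5-124 only.

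Other large negative differences were in genes that were called higher with YKL-5-124 against DMSO. Of the 8 named here, SLC6A8, CLU, TLCD1 and CTSV were not called with samuraciclib, NANOS1, PHYH and HES6 rose with it, and CYSRT1 (-0.51) was lower, a call lost without DMSO 2 (-0.49), samuraciclib 2 (-0.49) and samuraciclib 3 (-0.49). SLC6A8, the creatine transporter, was at 7.96, 8.36 and 8.59 CPM in DMSO, 8.14, 7.29 and 9.30 CPM with samuraciclib and 24.98, 24.6 and 23.3 CPM with YKL-5-124 (difference -1.56, adjusted p = 8.29e-09), and the interval of its change with samuraciclib was -0.24 to 0.21. CLU, the extracellular chaperone clusterin, was at 66.1, 68.2 and 72.5 CPM with samuraciclib and 164, 164 and 177 CPM with YKL-5-124 (-1.29), and TLCD1 differed by -1.22. CYSRT1 (-1.04), NANOS1 (-0.96), PHYH (-0.94), HES6 (-0.93) and CTSV (-0.85) followed. Of the replication-dependent histone genes, 0 of 41 were higher with samuraciclib and 10 lower than with YKL-5-124, among them HIST1H2BK (-0.57).

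None of the 50 replication genes and none of the 60 mitotic genes was called in the direct comparison. Without the limit on the fold, 9 replication genes were higher and 6 lower than with YKL-5-124 at an adjusted p below 0.05, and 10 mitotic genes were higher and 9 lower. NCAPH (log2 difference 0.4999, 95% interval 0.38 to 0.62, adjusted p = 7.79e-06) and TOP2A (0.42, 0.30 to 0.55, adjusted p = 6.01e-05) passed the adjusted p and lay below the fold limit of 0.5. RRM2 (interval 0.12 to 0.36, adjusted p = 0.00475), E2F1 (-0.32 to -0.11, adjusted p = 0.00429) and CDC20 (-0.28 to -0.06, adjusted p = 0.019) also passed it with smaller differences. For EGR1 the interval was -0.06 to 0.48 (adjusted p = 0.264), and a difference was not detected.

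**Figure D5:**
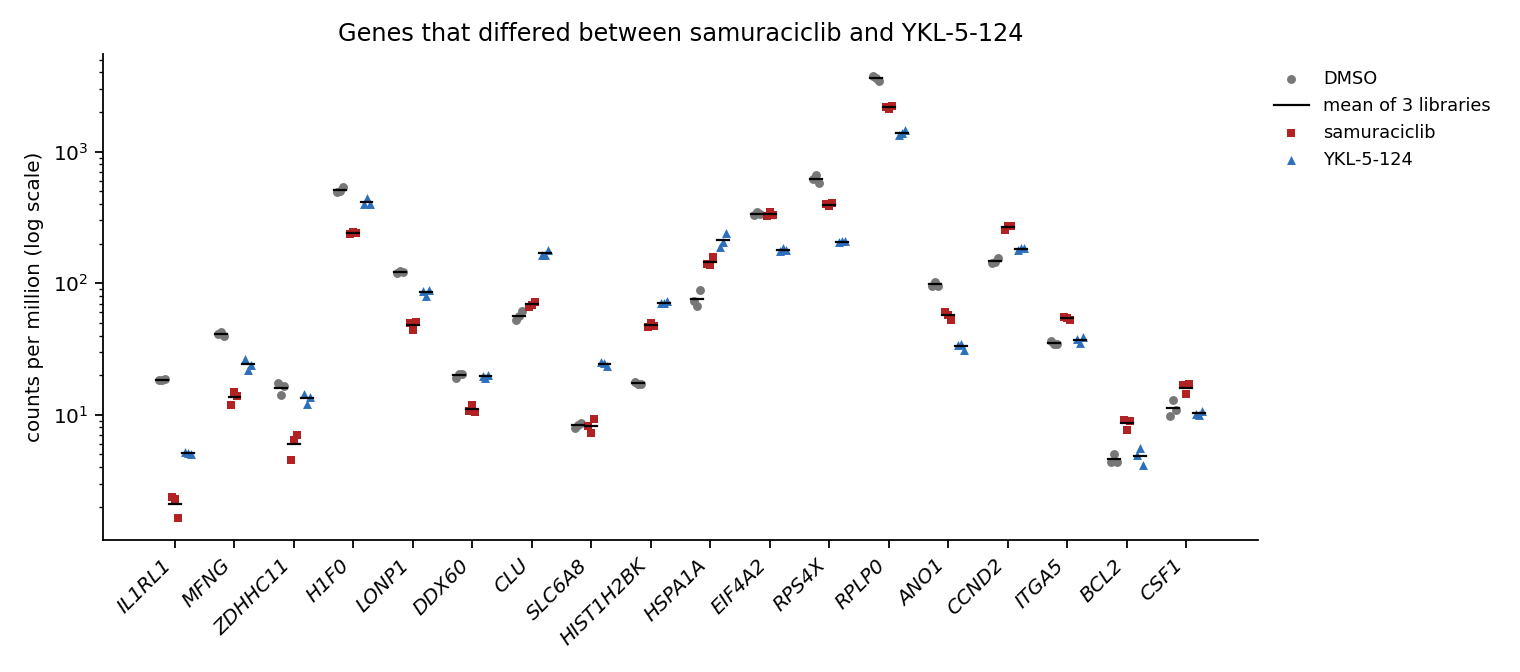
CPM on a log axis for 18 genes in the DMSO (grey circles), samuraciclib (red squares) and YKL-5-124 (blue triangles) libraries, 3 each, with a black line at each mean. Every gene plotted passed the direct comparison of the inhibitors, with IL1RL1 lowest under samuraciclib and CLU and SLC6A8 highest under YKL-5-124.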

How the data were processed

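RNA was measured by poly(A)-selected paired-end sequencing in 9 libraries of FaDu cells, 3 each of DMSO, samuraciclib and YKL-5-124. The deposited table holds raw counts per gene, which the authors made by aligning to GRCh38 with HISAT2 and counting with featureCounts 2.0.6. The strand setting and the annotation release are not given in the sources used here. The table also holds the authors' gene length, name and position, taken as given.

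Genes were kept by the filterByExpr function of edgeR 4.0.16 (R 4.3.3). One quasi-likelihood model (calcNormFactors by TMM, glmQLFit, glmQLFTest) was fitted to all 9 libraries, so that the groups share 1 estimate of the spread, and gave samuraciclib against DMSO and against YKL-5-124 with Benjamini-Hochberg adjusted p over the 16065 genes. A call needed an adjusted p below 0.05 and a log2 fold change beyond 0.5 in size. Groups came from the sample labels, and each library is 1 culture. Library totals of 18096180 to 28018126 counts set the precision. Summed list levels were compared with an exact two-sided permutation test over libraries. Tables and plots were made with Python 3.11.15, numpy 2.4.6, pandas 2.3.3 and matplotlib 3.10.9.

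The text names genes by a rule. It takes the protein-coding genes with the largest changes, an average of 10 CPM or more and groups that did not overlap, up to 6 called members of each of 50 gene lists with those that go the other way, a fixed set from CDK7 to MMP1, the largest differences from YKL-5-124, and the largest changes of other gene types averaging 2 CPM or more. Other genes named, among them MCM6, BOLA2B, and called members of lists with few calls, were chosen after their values were seen. The comparison, the lists and the rule were chosen with earlier results of these data known.

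Promoter sequences, RefSeq on GRCh38.p14, were matched by symbol to 11231 of the tested genes, and 250 bases before the start were searched on both strands. MYL9, TAGLN, MMP1, MMP3 and MMP13 had no entry there. Genomic span is the gene's end minus its start.

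On counts simulated for samuraciclib against DMSO over 16065 genes, the fit called 63.0% of 73 genes changed 1.5-fold, 92.3% of 65 changed 2-fold and 98.4% of 62 changed 4-fold, with 5 false calls. The changed genes were drawn only from genes above a minimum expected count, and the counts followed the fitted spread. These shares do not cover genes of low count. Alternatives were library size or median-of-ratios (RLE) scaling, no filter or a mean of at least 50 counts, DESeq2 1.42.0, only the 6 libraries compared, a log2 fold change beyond 1, glmTreat, a replicate block, leaving out the libraries low in RN7SL2, and leaving out each library in turn. A few genes are not reported here.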

Additional observations from a re-analysis of the deposited data

Results flagged for a closer look

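Samuraciclib and YKL-5-124 were given at the same dose, and a difference between them that passed the direct test drew attention to 395 genes higher and 717 lower with samuraciclib. The values below are log2 differences, samuraciclib minus YKL-5-124, for the genes named in the report or in its lists, and the reason for these differences was not tested. Among genes of the matrix, integrins and contraction they were MYL9 (0.57), MMP10 (-0.71), MMP15 (-0.51), TIMP3 (-0.64), TNC (0.55), ITGA5 (0.55), NID1 (0.75), ITGB8 (0.65), ITGB6 (0.58) and MMP12 (-0.92). Among signalling, survival and stress genes they were CCND2 (0.54), IL1RL1 (-1.27), CSF1 (0.64), OASL (-0.51), DDX60 (-0.83), MFNG (-0.83), HES6 (-0.93), BCL2 (0.81), DDIT3 (-0.53), HSPA1A (-0.55), DLL4 (-0.73) and ATF3 (-0.72). Ribosomal, translation and snoRNA host genes had differences of RPL3 (0.67), RPLP0 (0.64), PABPC4 (0.50), EIF4A2 (0.90), SNHG8 (0.71), SNHG5 (0.76), LRRC75A-AS1 (0.51), RPL27A (0.98), RPS4X (0.94) and RPL13 (0.90). Histone genes had differences of HIST1H2BK (-0.57), HIST1H2BJ (-0.53), HIST1H4I (-0.52), H1F0 (-0.79) and H1FX (-0.77). The other genes were KRT16 (0.56), LONP1 (-0.82), ZDHHC11 (-1.16), ANO1 (0.78), SLC6A8 (-1.56), CLU (-1.29), TLCD1 (-1.22), KCNQ5 (0.96), SHISAL1 (1.37), SAMD4A (0.91), KIAA1549 (0.86), CYSRT1 (-1.04), NANOS1 (-0.96), PHYH (-0.94), CTSV (-0.85), SH3RF2 (0.53), CFAP44 (-0.75), IKBKGP1 (1.91) and LINC01963 (-0.74).

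Some of these differences no longer passed when 1 library was left out, with the value without it in brackets. This held for MMP15 without samuraciclib 2 (-0.47) and YKL-5-124 3 (-0.42), TIMP3 without YKL-5-124 3 (-0.54), and OASL without samuraciclib 2 (-0.45) and YKL-5-124 2 (-0.38). It also held for TNC without samuraciclib 1 (0.49), PABPC4 without samuraciclib 1 (0.47), YKL-5-124 1 (0.498) and YKL-5-124 2 (0.47), and LRRC75A-AS1 without samuraciclib 2 (0.47), samuraciclib 3 (0.49), YKL-5-124 1 (0.45) and YKL-5-124 3 (0.49). The same was seen for HIST1H2BJ without samuraciclib 2 (-0.46) and YKL-5-124 2 (-0.49), HIST1H4I without samuraciclib 1 (-0.44) and YKL-5-124 2 (-0.498), and KRT16 without samuraciclib 3 (0.47) and YKL-5-124 2 (0.44). Further cases were DDIT3 without samuraciclib 1 (-0.49), HSPA1A without YKL-5-124 3 (-0.44), and SH3RF2 without samuraciclib 2 (0.40) and YKL-5-124 2 (0.44). The remaining cases were CFAP44 without samuraciclib 1 (-0.59), DLL4 without samuraciclib 1 (-0.74), samuraciclib 2 (-0.78), samuraciclib 3 (-0.68), YKL-5-124 1 (-0.68) and YKL-5-124 3 (-0.73), and IKBKGP1 without samuraciclib 3 (0.62) and YKL-5-124 1 (1.80).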

How the results depend on the processing

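The counts of called genes depended most on how the fold threshold was applied. For samuraciclib against DMSO, 471 genes were higher and 374 lower at a log2 fold change beyond 1, and 411 and 571 with glmTreat, which tests against the threshold of 0.5. Against YKL-5-124 these counts were 70 and 194, and 33 and 38. With library size alone 253 genes were higher than with YKL-5-124, against 395, at a median of -0.077 over all genes, and against DMSO it gave 1622 higher and 1219 lower at a median of 0.06. On that scale more members were called higher in the lists of p53 targets (7), TGF-beta (7), keratins (5), metalloproteinases (5) and NF-kB (4), and no member was called lower among contractile targets, junction genes, squamous factors and chaperones. Under RLE scaling, both other filters, DESeq2, the fit of 6 libraries and without the libraries low in RN7SL2, counts stayed within 1.5 times the reported ones, from 887 to 1374 higher and 1124 to 1636 lower against DMSO. Leaving out 1 library gave 1185 to 1271 higher and 1433 to 1518 lower against DMSO, and 345 to 391 higher and 549 to 671 lower against YKL-5-124. Of the 263 named genes called against DMSO, 179 were not called at a log2 fold change beyond 1, 91 with glmTreat, 18 with library size alone, among them TK1, MYH10, S100A2 and NPM1, and 17 without the libraries low in RN7SL2, among them TRAF1 and FGF4. The remaining settings across all libraries lost at most 7 of these calls. None of these genes was called in the other direction, but the balance of calls turned towards higher ones with library size alone and beyond 1, and squamous factors went from 0 higher and 1 lower to 2 and 0 with library size alone.

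No sign was found that the replicate numbers in the labels pair the samples, although correlations over so few libraries cannot exclude it. RN7SL2 was low in DMSO 3, samuraciclib 2 and YKL-5-124 2 (59.3, 24.9 and 56.25 CPM). A pairing under other numbers was not tested with a block. Deviations of same-numbered libraries correlated at 0.0659, -0.0432 and -0.0503, and DMSO 3 went best with samuraciclib 2 (0.142). With the replicate number as a block, 1282 genes were higher and 1543 lower against DMSO and 392 and 709 against YKL-5-124, and no call of a gene named in the text was lost.

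Genes with few counts carry the widest errors. At 3 libraries a group, no summed level can reach a permutation p below 0.1. The strand setting is unknown, so reads of a gene and of a model on its opposite strand cannot be told apart. Dose and time were 1 each, and the cultures come from 1 line.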
